A study of Homo sapiens with 10 samples.

Results

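The ZBTB genes encode transcription factors that carry a BTB domain and DNA-binding zinc fingers. They were taken as the rows of the count table whose symbol was ZBTB followed by a number and at most 1 letter, a rule that used no measured value, and made up 36 of the 28380 genes in the table. RPE-1 is an established line of human retinal pigment epithelial cells immortalized with telomerase, so both groups were a single cell line in culture. Cells in complete medium were exposed for 4 h to 25 µM sulforaphane (SFN), an isothiocyanate from cruciferous vegetables, or to its vehicle dimethyl sulfoxide (DMSO), with 5 samples in each group. The methods of the study name QuantSeq libraries, in which each read marks the 3′ end of a transcript, whereas the labels give only a standard Illumina preparation, so the relation of a count to transcript length is uncertain. The labels do not say how the replicates were set up, while the methods give a number of cells for each replicate and describe the study's replicates as independent. The p-values measure the spread between these samples.

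Proteins of the BTB-zinc finger family pair through the BTB domain and bind DNA through their zinc fingers, and most of those studied repress transcription by recruiting corepressors such as NCOR1, BCOR and SIN3A with their histone deacetylases. The family is best known from blood cells, where members such as BCL6, ZBTB7A and ZBTB7B decide lineage, but many members are expressed widely and act on the cell cycle, on methylated DNA or at telomeres. Others have little described function.

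The libraries held between 15689294 and 20666692 counts in DMSO and between 12375860 and 17308706 in SFN. DMSO replicate 1 stood apart from the other DMSO libraries. The slope of its expression on transcript length, in log2 units per doubling of length and relative to the mean of all libraries, was -0.26, against 0.08 to 0.14 in DMSO replicates 2 to 5, and among the SFN libraries the slope ran from -0.17 in replicate 2 to 0.10 in replicate 5. Of the 34 ZBTB genes with enough counts to test, 25 had their lowest DMSO value in DMSO replicate 1 and 7 their highest there, while 20 had their lowest SFN value in SFN replicate 2. The median canonical transcript of the tested ZBTB genes was 5497.5 bases long, against 3173 over all genes tested. Results are therefore given with and without DMSO replicate 1 where they differ, and the part of library quality in them was not tested. Of the defining markers of the retinal pigment epithelium, RPE65 (0 to 3 counts per library), RLBP1 (0 to 4), TYRP1 (0 to 2) and LRAT (3 to 12) were at or near 0 and PMEL was low (7 to 29). Levels are given in CPM, counts scaled to an equal library size with TMM factors. BEST1 was present at 18.8 ± 13.7 CPM (SD) in DMSO and 42.3 ± 36.6 CPM in SFN. It did not pass the edgeR test used for all genes (log2 fold change 1.17, adjusted p = 0.163). Without DMSO replicate 1 it passed the same test (log2 fold change 1.68, adjusted p = 0.00961), so that its call turned on that library. MITF fell from 50.7 ± 4.94 to 23.4 ± 2.78 CPM (log2 fold change -1.12, adjusted p = 5.27e-05) and OTX2 from 14.01 ± 2.13 to 8.99 ± 0.285 CPM (log2 fold change -0.64, adjusted p = 0.00288). The blood cell markers PTPRC (0 to 6 counts), CD14 (0 to 18) and LYZ (0 to 4) were near 0.

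More ZBTB genes fell than rose after SFN. With edgeR's quasi-likelihood test and Benjamini-Hochberg adjustment over the 13378 genes tested, 14 of 34 ZBTB genes were lower in SFN (adjusted p under 0.05), a share of 41.2% beside 13.9% of all genes tested. Another 3 were higher, a share of 8.82% beside a background of 9.07%. The remaining 17 did not pass the threshold. At an absolute log2 fold change above 1, 8 genes were lower (background 5.76%) and 1 was higher (background 2.94%), 9 in all (background 8.69%). The median log2 fold change of the family was -0.30, beside -0.03 over all genes. In 14 of 34 genes the DMSO and SFN samples did not overlap, 11 of them lower and 3 higher in SFN, beside backgrounds of 11.1% and 8.78% of all genes. The genes that fell were ZBTB26, ZBTB24, ZBTB3, ZBTB25, ZBTB8A, ZBTB39, ZBTB47, ZBTB38, ZBTB12, ZBTB14, ZBTB7B, ZBTB4, ZBTB45 and ZBTB10, and those that rose were ZBTB5, ZBTB2 and ZBTB6. Without DMSO replicate 1, when 35 were tested, 16 were lower (background 23.5%) and 5 were higher (background 22.5%), and the median difference from all genes moved from -0.27 to -0.44. Without SFN replicate 2 as well, 16 were lower (background 24.4%) and 7 were higher (background 23.2%). ZBTB8B (0 to 3 counts per library) and ZBTB46 (3 to 14 counts), a factor of dendritic cells, were too low to test.

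**Figure D1:**
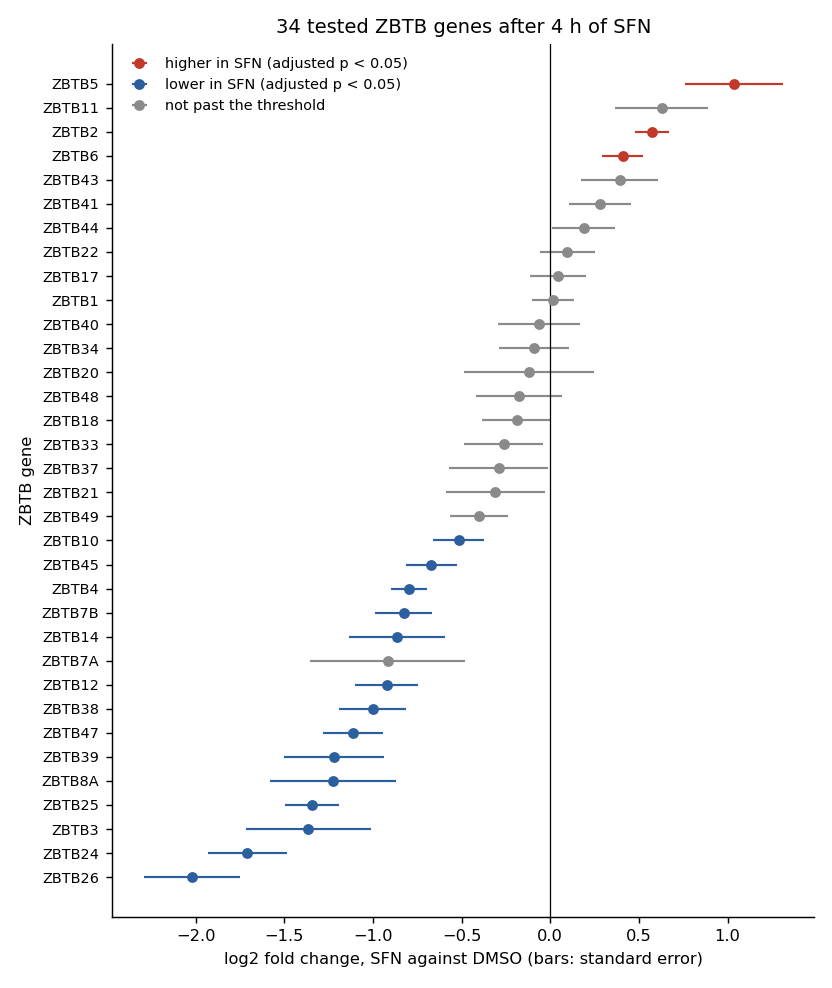
Log2 fold change of SFN against DMSO (x axis) for each of the 34 tested ZBTB genes (y axis), with the standard error as a bar and colour marking the genes past an adjusted p of 0.05. The 14 lower genes run from -2.02 for ZBTB26 to -0.52 for ZBTB10, and the 3 higher genes from 0.41 for ZBTB6 to 1.03 for ZBTB5.

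Added up, the 36 ZBTB genes took 1107 ± 61.6 CPM (SD, n = 5) in DMSO and 838.5 ± 106.6 CPM in SFN, 75.8% of the DMSO level. The SFN libraries, between 686 and 987 CPM, all lay below the DMSO libraries, between 1003 and 1146 CPM. ZBTB38 alone gave a large part of that sum, and without it the family took 784.5 ± 18.5 CPM in DMSO and 677.6 ± 73.5 CPM in SFN, or 86.4%, with overlapping groups. In bulk RNA such a change can come from fewer cells with the transcript or from less RNA per cell, which cannot be told apart. The lowest sum of each group came from its library with the lowest slope on transcript length, DMSO replicate 1 (-0.26) and SFN replicate 2 (-0.17). The highest SFN sum had the highest SFN slope (0.10), whereas in DMSO the highest sum and slope were in different libraries. The median slope was 0.112 in DMSO and -0.0413 in SFN, and its part in the sums was not tested.

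**Figure D2:**
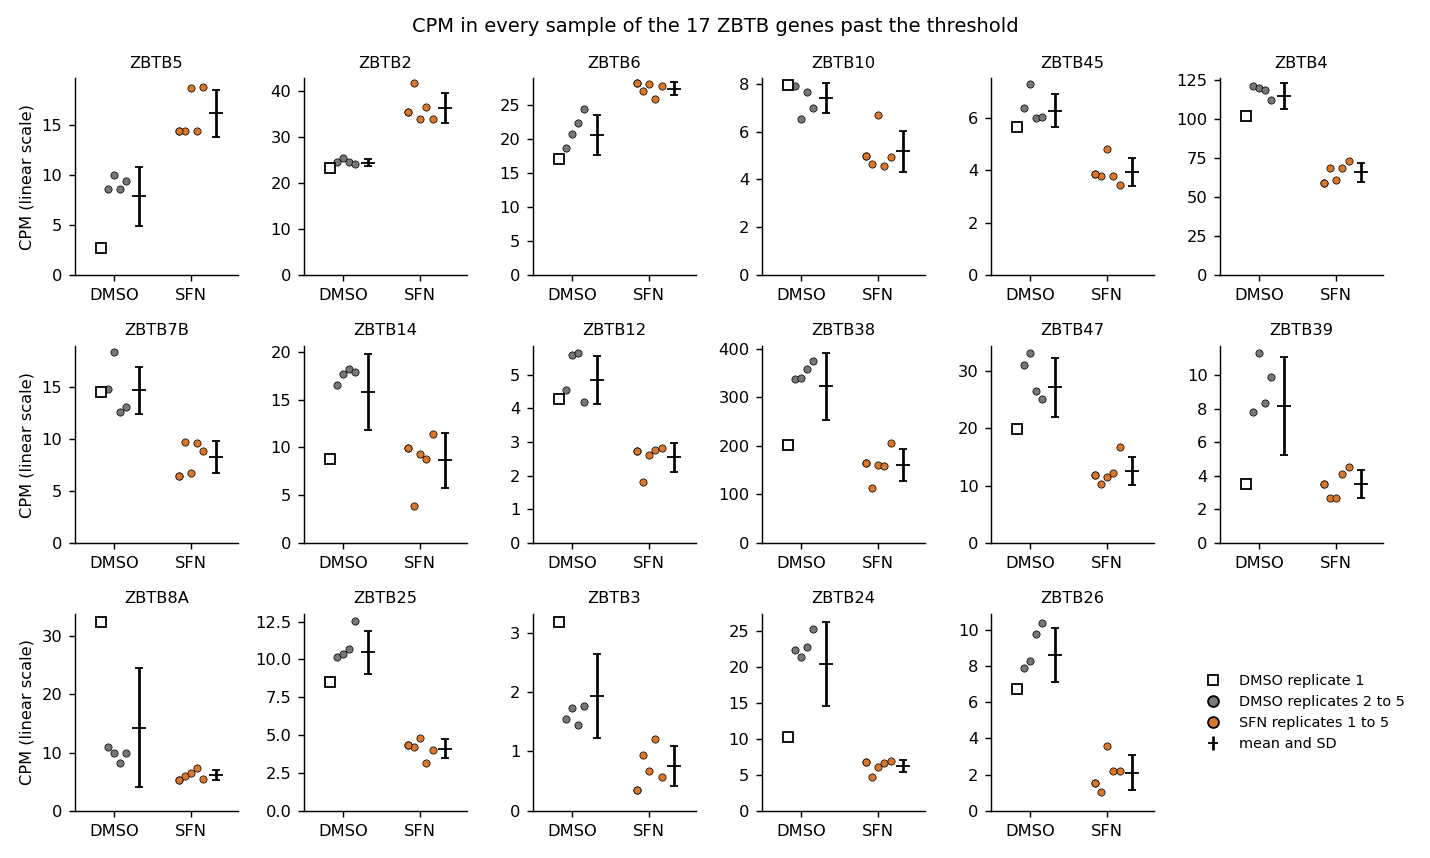
CPM (y axes, linear scale from 0) in every DMSO and SFN sample of the 17 ZBTB genes past an adjusted p of 0.05, ordered from the largest increase to the largest decrease, with the mean and SD beside the points and DMSO replicate 1 as an open square. In 13 of the 17 genes the groups do not overlap, and the overlapping genes are ZBTB10, ZBTB14, ZBTB38 and ZBTB39.

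The promoter sequences of 6 members are shown. These genes gave the largest decreases (ZBTB26 and ZBTB24) and the largest increases among the genes past the threshold (ZBTB5 and ZBTB2). The others are a pair with RefSeq starts near each other but without the same response (ZBTB25, which fell, and ZBTB1). Each line gives the 250 bases before a RefSeq start site (GRCh38.p14), read 5′ to 3′ on the strand of the gene. Capitals mark matches on either strand to the E-box CACGTG, the CCAAT box CCAAT, the ETS core CCGGAAG, the GC box GGGCGG or the cAMP response element TGACGTCA, and neighbouring matches run together. ZBTB26 lies at chr9:122931513-122931762 (minus strand), ZBTB24 at chr6:109483220-109483469 (minus strand), ZBTB5 at chr9:37465451-37465700 (minus strand) and ZBTB2 at chr6:151391560-151391809 (minus strand). For ZBTB25 the window is chr14:64503839-64504088 (minus strand), before an alternative start 1375 bases from the annotated gene start. For ZBTB1 it is chr14:64503637-64503886 (plus strand), before a start 175 bases from the annotated one. Among the RefSeq windows of both genes, the pair with the nearest starts was taken.
ZBTB26: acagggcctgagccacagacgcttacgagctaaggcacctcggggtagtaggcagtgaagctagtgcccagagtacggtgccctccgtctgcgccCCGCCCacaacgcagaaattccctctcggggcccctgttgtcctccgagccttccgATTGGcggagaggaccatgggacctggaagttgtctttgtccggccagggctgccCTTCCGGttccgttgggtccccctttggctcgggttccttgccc
ZBTB24: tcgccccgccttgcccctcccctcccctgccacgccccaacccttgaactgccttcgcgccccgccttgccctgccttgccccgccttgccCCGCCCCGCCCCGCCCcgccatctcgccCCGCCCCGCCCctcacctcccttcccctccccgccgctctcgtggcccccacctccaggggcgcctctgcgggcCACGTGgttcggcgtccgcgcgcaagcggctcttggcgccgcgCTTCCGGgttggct
ZBTB5: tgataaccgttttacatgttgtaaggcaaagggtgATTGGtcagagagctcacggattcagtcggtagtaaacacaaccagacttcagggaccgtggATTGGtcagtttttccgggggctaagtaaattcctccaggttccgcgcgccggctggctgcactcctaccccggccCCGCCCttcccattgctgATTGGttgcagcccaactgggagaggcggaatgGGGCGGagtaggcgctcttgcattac
ZBTB2: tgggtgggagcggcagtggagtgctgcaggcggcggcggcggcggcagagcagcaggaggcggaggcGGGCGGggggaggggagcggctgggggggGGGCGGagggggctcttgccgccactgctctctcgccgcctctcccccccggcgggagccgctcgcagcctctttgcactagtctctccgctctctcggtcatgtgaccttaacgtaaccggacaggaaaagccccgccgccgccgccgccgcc
ZBTB25: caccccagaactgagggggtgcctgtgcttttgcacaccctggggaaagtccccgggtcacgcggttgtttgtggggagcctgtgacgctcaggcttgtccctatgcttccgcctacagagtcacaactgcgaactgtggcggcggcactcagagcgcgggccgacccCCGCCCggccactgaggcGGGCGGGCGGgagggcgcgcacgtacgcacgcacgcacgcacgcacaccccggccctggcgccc
ZBTB1: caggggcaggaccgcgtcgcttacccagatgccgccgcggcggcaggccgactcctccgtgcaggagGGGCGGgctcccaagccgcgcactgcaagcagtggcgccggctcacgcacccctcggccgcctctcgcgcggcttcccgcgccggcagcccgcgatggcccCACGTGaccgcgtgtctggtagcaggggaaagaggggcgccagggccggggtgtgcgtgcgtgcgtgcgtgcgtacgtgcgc
The windows of ZBTB26 and ZBTB24 each held 1 ETS match, 44 and 14 bases before the start site. A CCAAT box stood in the ZBTB26 window, 99 bases before the start. E-boxes stood in the ZBTB24 window, 57 bases before the start, and in the ZBTB1 window, 82 bases before it. ZBTB5 held 3 CCAAT boxes. GC boxes were found in all 6 windows, 5 in ZBTB24, 3 in ZBTB25, 2 each in ZBTB5 and ZBTB2 and 1 each in ZBTB26 and ZBTB1. The start sites chosen for ZBTB25 and ZBTB1, the nearest pair, lie 49 bases apart and point away from each other, so that 48 bases belong to both windows. Which starts these cells use was not tested.

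Of the 36 ZBTB genes, 31 had at least 1 window that was used, 62 windows in all. Windows on chromosome 8, where ZBTB10 lies, were left out of the family's set but kept among all windows. ZBTB6, ZBTB10, ZBTB17, ZBTB40 and ZBTB41 had none that was used. The ETS core was found in 11 of 62 windows (17.7%), from 10 genes, beside 8.52% of all 35116 windows of the same length. Of those 10 genes, 5 fell (ZBTB4, ZBTB24, ZBTB26, ZBTB38 and ZBTB45) and 0 rose, close to the family's own 41.2% and 8.82%, so nothing is read from it. GC boxes were found in 36 windows (58.1%, beside 42.64% of all windows), and CCAAT boxes in 23 (37.1%, beside 32.01%). The E-box was in 6 windows (9.7%, beside 6.34%), the cAMP response element in 2 (3.2%, beside 1.65%), the antioxidant response element TGACNNNGC in 6 (9.7%, beside 10.91%) and the heat shock element GAANNTTC in 5 (8.1%, beside 5.78%). The site TCCTGCNA bound by ZBTB33 was in 4 windows (6.5%, beside 3.74%), the EGR1 site GCGTGGGCG in 1 (1.6%, beside 0.72%) and the amino acid response element TGATGNAAT in 0 (beside 0.89%). GC boxes were found in 28 of the 31 genes. Of those 28 genes, 11 fell and 2 rose, also close to the family's 41.2% and 8.82%, so nothing is read from it.

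Of the 4 members listed here for the cell cycle, ZBTB5 and ZBTB2 rose, beside 9.07% of all genes, and ZBTB17 and ZBTB49 did not pass. The groups by role were chosen by hand, so members placed elsewhere may also act on the cell cycle. ZBTB5 and ZBTB2 are repressors of CDKN1A, the gene of the cell cycle inhibitor p21. ZBTB5 (ENSG00000168795, chr9:37438102-37465450, minus strand) was counted at 2.74, 8.599, 10.1, 8.601 and 9.46 CPM in DMSO replicates 1 to 5 and at 14.5, 14.5, 18.7, 14.4 and 18.9 CPM in SFN replicates 1 to 5. Every SFN sample was above every DMSO sample, and DMSO replicate 1 was far below the other DMSO samples. The mean rose 2.05-fold (log2 fold change 1.03, SE 0.28, adjusted p = 0.018), and the log2 fold change was 0.81 without DMSO replicate 1 (adjusted p = 0.000172 by the same edgeR test). ZBTB2 (ENSG00000181472, chr6:151364115-151391559, minus strand) stood at 23.2, 24.4, 25.4, 24.6 and 24.1 CPM in DMSO and at 35.4, 41.7, 33.8, 36.5 and 33.8 CPM in SFN. Its DMSO samples lay within a narrow range and all SFN samples lay above it, a log2 fold change of 0.57 (SE 0.097, adjusted p = 0.00125).

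ZBTB17 (MIZ1), the partner through which MYC represses genes, was at 23.5 ± 4.34 CPM (SD, n = 5) in DMSO and 24.2 ± 3.701 CPM in SFN, a log2 fold change of 0.04 (SE 0.16, adjusted p = 0.88). ZBTB49, an activator of CDKN1A, was low, at 2.55, 3.14, 2.96, 2.95 and 2.72 CPM in DMSO and 2.26, 2.24, 1.86, 2.49 and 1.97 CPM in SFN. Its groups did not overlap, the SFN samples being lower, but the log2 fold change of -0.40 (SE 0.17) did not pass the threshold (adjusted p = 0.105). CDKN1A itself rose from 39.95 ± 4.87 to 54.9 ± 7.28 CPM (log2 fold change 0.46, adjusted p = 0.0208), and MYC rose from 46.3 ± 3.07 to 101.6 ± 13.6 CPM (log2 fold change 1.13, adjusted p = 3.13e-05).

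Of the 3 members listed here that bind methylated DNA, ZBTB4 and ZBTB38 fell, beside 41.2% of the family and 13.9% of all genes. ZBTB38 (ENSG00000177311, chr3:141324213-141449792, plus strand), which also binds unmethylated E-boxes, was at 202, 337, 339, 358 and 374 CPM in DMSO and at 165, 113, 161, 159 and 207 CPM in SFN. DMSO replicate 1 was lower than SFN replicate 5, the only pair that overlapped, and the mean fell to 0.499 of the DMSO mean (log2 fold change -1.002, SE 0.19, adjusted p = 0.00257). ZBTB4 (ENSG00000174282, chr17:7459366-7484263, minus strand) was at 102, 121, 120, 119 and 112 CPM in DMSO and 58.7, 68.7, 60.8, 68.8 and 73.3 CPM in SFN. The groups were wide apart, and the log2 fold change of -0.80 had an SE of 0.10 (adjusted p = 0.000163). ZBTB33 (Kaiso), on chromosome X, was at 12.9, 30.2, 30.1, 32 and 31.3 CPM in DMSO and 22.5, 19.6, 23.6, 20.01 and 27.9 CPM in SFN. DMSO replicate 1 was below every SFN sample and the other DMSO samples were above all of them. The log2 fold change was -0.26 (SE 0.22, adjusted p = 0.451) with all libraries and -0.45 (adjusted p = 0.00458) without DMSO replicate 1, so that the call turned on that library.

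Of the 4 members listed here for the stability of chromosomes, ZBTB24 and ZBTB10 fell, beside 41.2% of the family and 13.9% of all genes. ZBTB24 (ENSG00000112365, chr6:109460632-109483239, minus strand) is mutated in an immunodeficiency syndrome with unstable centromeres and activates CDCA7. Its level was 10.3, 22.4, 21.3, 22.8 and 25.2 CPM in DMSO and 6.72, 4.74, 6.097, 6.67 and 6.91 CPM in SFN. DMSO replicate 1 was below the other DMSO samples and still above every SFN sample. The mean fell to 0.306 of the DMSO mean (log2 fold change -1.71, SE 0.22, adjusted p = 0.000198), and to a log2 fold change of -1.88 without DMSO replicate 1. CDCA7 fell as well, from 60.5 ± 7.604 to 26.0 ± 2.77 CPM (log2 fold change -1.22, adjusted p = 3.13e-05).

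ZBTB10, which binds variant telomere repeats and competes with SP factors at GC-rich sites, was at 7.96, 7.92, 6.53, 7.64 and 6.97 CPM in DMSO and 4.999, 4.65, 6.69, 4.58 and 4.93 CPM in SFN. SFN replicate 3 lay within the DMSO range and the other SFN samples below it, a log2 fold change of -0.52 (SE 0.14, adjusted p = 0.0228). This call was kept under 11 of 19 alternative settings, and 474 bases of the exons are shared with a noncoding gene on the opposite strand. Among the SP genes, SP4 fell from 7.06 ± 1.85 to 3.36 ± 1.27 CPM (log2 fold change -1.06, adjusted p = 0.0244). SP1 and SP3 had log2 fold changes of -0.19 and 0.03 and did not pass with all libraries. Without DMSO replicate 1, SP1 passed at -0.38 (adjusted p = 0.0443 by the same edgeR test) and SP3 did not pass. ZBTB48 (TZAP) and ZBTB40, both telomere-binding factors, had log2 fold changes of -0.18 (SE 0.24) and -0.06 (SE 0.23). They did not pass with all libraries or without DMSO replicate 1.

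The members known from blood lineages are ZBTB7B, ZBTB7A, ZBTB1 and ZBTB46. ZBTB7B (ThPOK, ENSG00000160685, chr1:155002630-155018523, plus strand), the factor that commits T cells to the CD4 lineage, was at 14.6, 14.8, 18.3, 12.6 and 13.1 CPM in DMSO and 6.43, 9.73, 6.77, 9.63 and 8.81 CPM in SFN. All SFN samples were below all DMSO samples, a log2 fold change of -0.83 (SE 0.16, adjusted p = 0.00303). ZBTB7A (LRF), a repressor of fetal globin and of glycolysis genes, was at 185, 38.3, 54.7, 37.6 and 37.2 CPM in DMSO and 36.4, 48.8, 41.04, 33.6 and 27.2 CPM in SFN. DMSO replicate 1 was several times higher than any other library, and the groups otherwise overlapped. The log2 fold change was -0.92 (SE 0.44, adjusted p = 0.162) with it and -0.17 (adjusted p = 0.391) without it. ZBTB1, needed for lymphoid development, was at 79.8 ± 5.31 CPM (SD, n = 5) in DMSO and 80.7 ± 12.2 CPM in SFN, a log2 fold change of 0.02 (SE 0.12, adjusted p = 0.947). Of the glycolysis genes repressed by ZBTB7A, SLC2A3 fell (13.1 ± 1.22 to 9.45 ± 0.98 CPM, log2 fold change -0.47, adjusted p = 0.0138). PKM (log2 fold change 0.31, adjusted p = 0.0765) and PFKP (0.07, adjusted p = 0.823) did not pass with all libraries. Without DMSO replicate 1, PKM passed at 0.23 (adjusted p = 0.0199 by the same edgeR test) and PFKP did not pass.

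Of the 4 members listed here for development, ZBTB14 and ZBTB45 fell, beside 41.2% of the family and 13.9% of all genes. ZBTB14 (ZF5, ENSG00000198081, chr18:5289019-5297053, minus strand), a GC-rich DNA binder first found at the MYC promoter, was at 8.83, 16.6, 17.6, 18.2 and 17.9 CPM in DMSO and 9.94, 3.88, 9.29, 8.76 and 11.4 CPM in SFN. DMSO replicate 1 lay within the SFN range and the other DMSO samples above it. The log2 fold change was -0.86 (SE 0.27, adjusted p = 0.0375) and -1.01 (adjusted p = 0.00124) without DMSO replicate 1. The call was kept under 10 of 19 alternative settings. The annotated exons of ZBTB14 overlap those of LINC00667 on the opposite strand over 523 bases. LINC00667 rose from 27.7 to 37.8 CPM (log2 fold change 0.45, adjusted p = 0.00315), and as the use of strand in counting is not given in the sources used here, reads of the shared part cannot be assigned.

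ZBTB45 (ENSG00000119574, chr19:58513530-58538911, minus strand), described in glial differentiation, was at 5.66, 6.37, 7.31, 6.01 and 6.03 CPM in DMSO and 3.87, 3.79, 4.83, 3.77 and 3.46 CPM in SFN. The groups did not overlap, with a log2 fold change of -0.67 (SE 0.14, adjusted p = 0.00557). ZBTB18, a repressor in developing neurons, was at 28.8 ± 6.04 CPM (SD, n = 5) in DMSO and 25.3 ± 5.84 CPM in SFN and did not pass (log2 fold change -0.19, SE 0.20, adjusted p = 0.547). ZBTB20, known from hippocampus and liver, was at 30.9, 8.46, 8.93, 7.88 and 12.1 CPM in DMSO and 12.02, 18.5, 11.4, 9.84 and 11 CPM in SFN. DMSO replicate 1 and SFN replicate 2 were the highest of their groups, and 15214 bases of its exons are shared with a noncoding gene on the same strand, which leaves its counts uncertain. Its log2 fold change turned from -0.12 (SE 0.37) with all libraries to 0.42 without DMSO replicate 1, neither past the threshold (adjusted p = 0.86 and 0.0768).

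The remaining members are less well described, and most of those that passed fell. ZBTB26 (ENSG00000171448, chr9:122915566-122931512, minus strand) had the largest decrease of the family. It was at 6.71, 7.92, 8.26, 9.74 and 10.4 CPM in DMSO and 1.55, 1.03, 3.57, 2.22 and 2.19 CPM in SFN, and no SFN sample reached the lowest DMSO sample. The mean fell to 0.246 of the DMSO mean (log2 fold change -2.02, SE 0.27, adjusted p = 0.000246). ZBTB25 (KUP, ENSG00000089775, chr14:64449106-64505213, minus strand) was at 8.52, 10.2, 10.4, 10.7 and 12.5 CPM in DMSO and 4.34, 4.22, 4.83, 3.17 and 4.02 CPM in SFN. These groups were also apart, with a log2 fold change of -1.35 (SE 0.15, adjusted p = 7.97e-05). ZBTB47 (ENSG00000114853, chr3:42653697-42667580, plus strand) was at 19.9, 30.9, 33.1, 26.5 and 25.1 CPM in DMSO and 11.9, 10.2, 11.5, 12.1 and 16.8 CPM in SFN. Its SFN replicate 5 was the highest of the SFN samples and still below DMSO replicate 1, the lowest of the DMSO samples (log2 fold change -1.11, SE 0.17, adjusted p = 0.000609). Its exons share 1708 bases with a noncoding gene on the opposite strand, so its counts are uncertain as well.

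ZBTB12 (ENSG00000204366, chr6:31899613-31902086, minus strand) was at 4.29, 4.55, 5.58, 5.65 and 4.196 CPM in DMSO and 2.74, 1.81, 2.602, 2.76 and 2.82 CPM in SFN. All of its SFN samples were lower, with a log2 fold change of -0.92 (SE 0.18, adjusted p = 0.00275). ZBTB39 (ENSG00000166860, chr12:56998836-57006546, minus strand) was at 3.54, 7.78, 11.3, 8.36 and 9.87 CPM in DMSO and 3.51, 2.67, 2.68, 4.11 and 4.51 CPM in SFN. DMSO replicate 1 lay among the SFN samples and the other DMSO samples above them, and the log2 fold change was -1.22 (SE 0.28, adjusted p = 0.00888).

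For ZBTB8A and ZBTB3, DMSO replicate 1 was the highest library, and for ZBTB8A the size of the decrease turned on it. ZBTB8A (ENSG00000160062, chr1:32539427-32605941, plus strand) was at 32.4, 11.01, 9.99, 8.18 and 9.87 CPM in DMSO and 5.24, 6.03, 6.47, 7.34 and 5.43 CPM in SFN. The groups did not overlap with or without that library, but the log2 fold change moved from -1.22 (SE 0.36, adjusted p = 0.0275) to -0.69 (adjusted p = 0.0012). The call was kept under 12 of 19 alternative settings. Exons of ZBTB8A share 1782 bases with another annotated gene on the same strand, which also shares 1477 bases with ZBTB8B, so its counts are uncertain. ZBTB3 (ENSG00000185670, chr11:62748319-62754184, minus strand), at 6 to 51 counts per library, was at 3.17, 1.55, 1.73, 1.44 and 1.77 CPM in DMSO and 0.357, 0.948, 0.669, 1.21 and 0.564 CPM in SFN. All SFN samples were below all DMSO samples, and the log2 fold change was -1.37 (SE 0.35, adjusted p = 0.0153) with DMSO replicate 1 and -1.13 (adjusted p = 0.0105) without it.

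ZBTB6 (ZID, ENSG00000186130, chr9:122908056-122913323, minus strand), in which the BTB domain was described as an interaction domain, was the third gene that rose. Its level was 17.1, 18.7, 20.7, 22.4 and 24.5 CPM in DMSO and 28.3, 27.1, 28.1, 25.9 and 27.8 CPM in SFN. Every SFN sample exceeded every DMSO sample, with a log2 fold change of 0.41 (SE 0.11, adjusted p = 0.0233), a call kept under 12 of 19 alternative settings. ZBTB11, needed for neutrophil development and for mitochondrial function and with 528 exon bases shared with its antisense gene ZBTB11-AS1, was at 15.3, 38.8, 38.7, 42.5 and 38.8 CPM in DMSO and 55.4, 33.9, 55.9, 51.6 and 72.4 CPM in SFN. SFN replicate 2 lay below most DMSO samples and the other SFN samples above all of them. The log2 fold change of 0.63 (SE 0.26) did not pass with all libraries (adjusted p = 0.111) and passed at 0.44 (adjusted p = 0.0363) without DMSO replicate 1. ZBTB44 and ZBTB21 also did not pass with all libraries and passed without that library, at log2 fold changes of 0.36 (adjusted p = 0.0301) and -0.52 (adjusted p = 0.0101). With all libraries they stood at 0.19 (SE 0.18, adjusted p = 0.511) and -0.31 (SE 0.28, adjusted p = 0.489).

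The last members did not pass the threshold with all libraries or without DMSO replicate 1. With all libraries, ZBTB43 had a log2 fold change of 0.39 (SE 0.22), ZBTB41 of 0.28 (SE 0.18) and ZBTB22 of 0.10 (SE 0.15). ZBTB34 had -0.09 (SE 0.20) and ZBTB37 had -0.29 (SE 0.28). Of the 17 genes that did not pass, 9 had a log2 fold change within 0.2 of 0, and in 16 the groups overlapped.

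**Figure D3:**
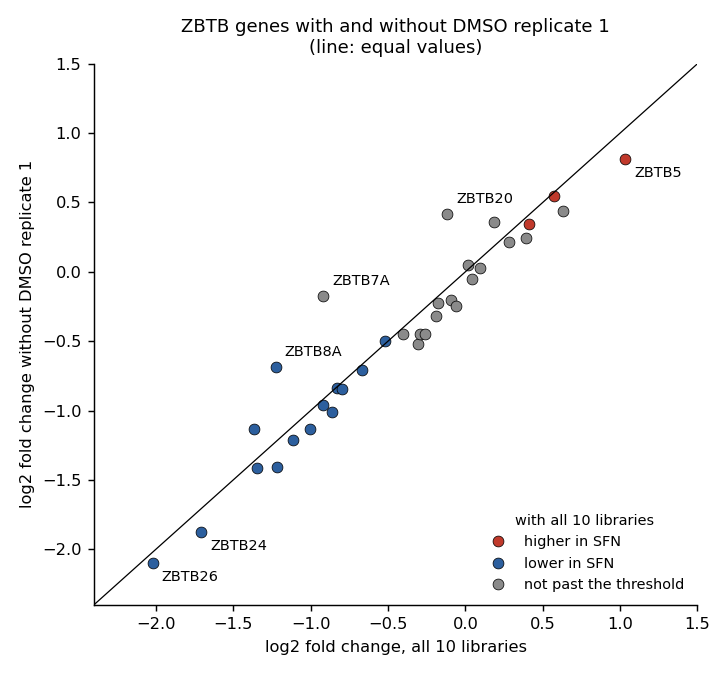
Log2 fold change of the 34 tested ZBTB genes with all 10 libraries (x axis) and without DMSO replicate 1 (y axis), coloured by the call with all libraries, with a line at equal values. Most genes lie near the line, while ZBTB7A moves from -0.92 to -0.17, ZBTB8A from -1.22 to -0.69 and ZBTB20 from -0.12 to 0.42.

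Neighbouring members were compared within each sample, which cancels the scaling of the library. There were 3 pairs within 100 kb of each other, and as they were chosen after the values had been seen, their ratios are a description with no test. ZBTB6 and ZBTB26 lie in the same orientation on chromosome 9, 2242 bases apart. The log2 ratio of ZBTB6 to ZBTB26 was 1.22 ± 0.056 (SD, n = 5) in DMSO and 3.49 ± 0.518 in SFN, a difference of 2.27, as follows from the rise of ZBTB6 and the fall of ZBTB26. In the DMSO samples the ratio stayed between 1.16 and 1.29, and the lowest SFN sample was at 2.81.

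ZBTB1 and ZBTB25 lie head to head on opposite strands of chromosome 14 and their annotated bodies overlap, with annotated starts 1501 bases apart. The log2 ratio of ZBTB1 to ZBTB25 was 2.88 ± 0.255 in DMSO and 4.13 ± 0.306 in SFN, a difference of 1.25. ZBTB1 itself was at 88.4, 75.8, 75.2, 80.7 and 79.02 CPM in DMSO and 90.5, 60.7, 81.9, 79.6 and 90.6 CPM in SFN, so that the ratio moved with ZBTB25. For ZBTB43 over ZBTB34, 22428 bases apart on chromosome 9, the log2 ratio moved by 0.49, with overlapping groups.

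**Figure D4:**
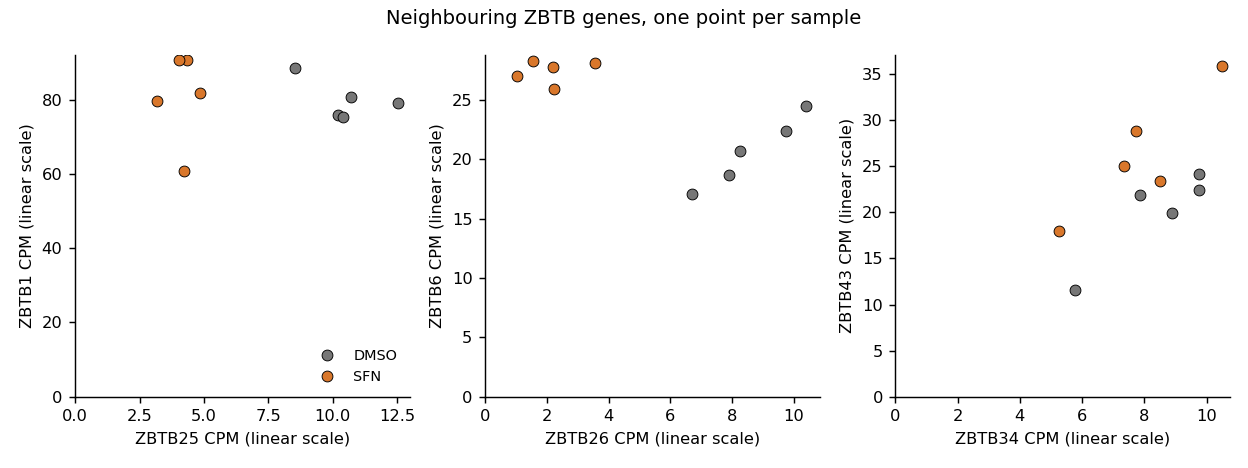
CPM of neighbouring ZBTB genes against each other, with 1 point per sample (linear axes from 0), for ZBTB1 and ZBTB25, ZBTB6 and ZBTB26, and ZBTB43 and ZBTB34. ZBTB25 lies at or above 8.52 CPM in DMSO and at or below 4.83 CPM in SFN while ZBTB1 overlaps, and ZBTB26 lies at or above 6.71 CPM in DMSO and at or below 3.57 CPM in SFN while ZBTB6 is higher in SFN.

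The same counts were made for related gene lists. Of the BTB-zinc finger genes with other symbols, 7 were tested, of which 1 rose and 2 fell. BCL6, the repressor that drives germinal centre B cells, rose from 12.7 ± 1.89 to 30.4 ± 3.71 CPM (log2 fold change 1.26, adjusted p = 5.22e-05). PATZ1, a partner of p53 and other BTB factors, fell from 14.8 ± 1.77 to 2.23 ± 0.558 CPM (log2 fold change -2.72, adjusted p = 1.7e-06), and ZNF131 fell with a log2 fold change of -0.40 (adjusted p = 0.0138). Both directions thus occurred among them. The 437 tested ZNF genes, which encode zinc finger proteins mostly without a BTB domain, had 33.2% lower and 5.72% higher and a median log2 fold change of -0.39. Of 24 KLHL genes, which encode BTB proteins without zinc fingers, 6 fell (25%) and 1 rose (4.17%), and of 10 BTBD genes 1 fell (10%). The ZNF and KLHL genes were thus lower in a larger share than all genes, as the ZBTB genes were. No test of the difference between the lists was made. Without DMSO replicate 1 the lower shares were 46.7% of ZNF, 45.8% of KLHL and 45.7% of ZBTB genes, beside 23.5% of all genes. They were 42.9% of the other BTB-zinc finger genes and 20% of BTBD genes. The order of the lists thus turned.

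Among 27 corepressor genes, 4 fell and 1 rose, shares of 14.8% and 3.7% beside 13.9% and 9.07% of all genes. BCOR, which binds the BTB domain of BCL6, fell from 43.5 ± 9.23 to 8.57 ± 1.37 CPM (log2 fold change -2.34, adjusted p = 5.59e-06). Its relative BCORL1 fell from 8.30 ± 3.02 to 2.18 ± 0.32 CPM (log2 fold change -1.92, adjusted p = 0.000766), KDM2B, a subunit of the BCOR complex, fell by 1.08 and SIN3A fell by 0.82 on the log2 scale. GPS2, a subunit of the NCOR complex, rose (log2 fold change 0.74, adjusted p = 0.0427). NCOR1 (log2 fold change 0.00, SE 0.18) and HDAC3 (0.00, SE 0.15) did not pass. Without DMSO replicate 1, 8 corepressor genes fell (29.6%, beside 23.5% of all genes) and 1 rose. Of 12 tested genes reported as targets or partners of ZBTB factors, MYC and CDKN1A rose and CDCA7, SP4 and SLC2A3 fell, with the values given above. Without DMSO replicate 1, 3 of the 12 rose (25%, beside 22.5% of all genes) and 5 fell (41.7%, beside 23.5%).

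**Figure D5:**
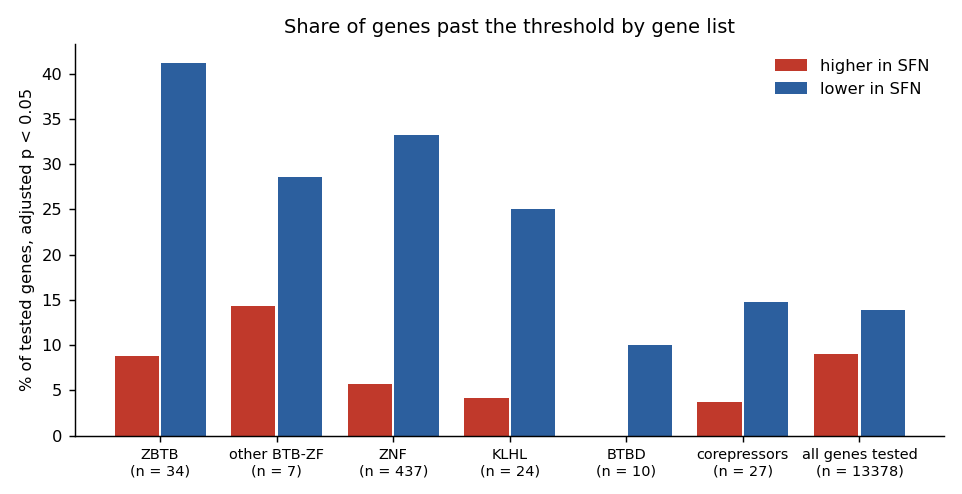
Percentage of tested genes (y axis) higher or lower in SFN at an adjusted p under 0.05 in the ZBTB family, related gene lists and all genes tested (x axis, with the number tested). The lower share was 41.2% in the ZBTB family, 33.2% in ZNF genes, 25% in KLHL genes and 13.9% in all genes. Without DMSO replicate 1, not plotted, these were 45.7%, 46.7%, 45.8% and 23.5%.

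The changes were also set beside transcript length and base composition. Across the 34 genes, as a description, the log2 fold change had a Pearson r of 0.04 and a Spearman rho of -0.04 with transcript length, and of -0.17 and -0.19 with GC content. The canonical transcripts of the 3 genes that rose were 3103 to 4690 bases long, and those of the 14 that fell 1963 to 10365 bases. The genes share libraries and a length-dependent library effect, so these are not independent points.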

How the data were processed

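By the methods of the study, the authors sequenced RNA of RPE-1 cells with Lexogen QuantSeq, which reads the 3′ ends of transcripts, and aligned the reads with the Bluebee pipeline (GRCh38). The labels instead give a standard Illumina preparation, and which of these made the table is not settled here. The deposited table held unnormalized read counts for each Ensembl gene in each of the 10 samples. The submitters' processing notes name FastQC, STAR, featureCounts and edgeR without their roles, and the counting rules, the use of strand and of molecular identifiers and the annotation release are not given in the sources used here. The authors then applied voomWithDreamWeights to quantile normalized values and accounted for repeated measures, without naming the samples these tie. The nearest alternative run here was limma-voom on quantile normalized values.

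From the counts, genes were filtered with filterByExpr (minimum count 10), scaled by TMM and tested with glmQLFit and glmQLFTest in edgeR 4.0.16 (R 4.3.3), 5 SFN against 5 DMSO samples, with Benjamini-Hochberg adjustment over all 13378 genes tested. CPM used the TMM-scaled library sizes. Standard errors were obtained from the quasi-likelihood F statistic (the size of the log2 fold change over the root of F) and cover the spread between replicates, of which counting error is a large part for genes at a few counts per library. Between replicates of a group, chi-square over its degrees of freedom was 3.71 to 280.8, so no library was a copy of another. The scripts were tested on simulated counts. limma 3.58.1 and DESeq2 1.42.0 were alternatives, beside other normalizations and filters, a replicate block, an offset for transcript length (known for 13324 of the genes tested) and leaving out each library. Leaving out DMSO replicate 1 and SFN replicate 2 together was chosen after seeing the data.

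Gene positions, lengths and overlaps came from GENCODE 44, which held 28145 of the 28380 identifiers, and promoter sequences from RefSeq. Values are given for every ZBTB gene, in every sample for those past the threshold and for some of the others. Of each other list they are given for the members with the largest changes in each direction. Some that did not pass were named after their values were seen. The family, the gene lists and the motifs were chosen with earlier results of these data known. The dream model was not run.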

Additional observations from a re-analysis of the deposited data

Results flagged for a closer look

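In 19 of 72 groups of 5 samples, 1 sample lay far from the others by Dixon's test, where chance gives about 1 in 20 groups, or 3.6. The value given is the gap to the nearest other sample as a share of the range of the group. DMSO replicate 1 was that sample in 14 groups. It was far below the other DMSO samples for ZBTB5 (0.80), ZBTB11 (0.86), ZBTB40 (0.79), ZBTB33 (0.90), ZBTB21 (0.74), ZBTB14 (0.82), ZBTB38 (0.78) and ZBTB24 (0.74), and far above them for ZBTB44 (0.75), ZBTB20 (0.82), ZBTB7A (0.88), ZBTB8A (0.88) and ZBTB3 (0.81). Its slope of expression on transcript length was also far below those of the other DMSO libraries (0.87). SFN replicate 2 was far from the other SFN samples for ZBTB17 (0.78, lowest), ZBTB20 (0.75, highest) and ZBTB12 (0.78, lowest). SFN replicate 3 was the highest for ZBTB10 (0.80) and SFN replicate 5 the highest for ZBTB47 (0.71). Flags of the same library are not independent of each other.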

How the results depend on the processing

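Of the 17 ZBTB genes past the threshold, 11 passed it in the same direction under all 19 alternatives: ZBTB2, ZBTB4, ZBTB5, ZBTB7B, ZBTB12, ZBTB24, ZBTB25, ZBTB26, ZBTB38, ZBTB45 and ZBTB47. ZBTB3 and ZBTB39 passed under 18, ZBTB6 and ZBTB8A under 12, ZBTB10 under 11 and ZBTB14 under 10, and none of the 17 changed direction. The number of higher genes, 3 with all libraries (background 9.07%), was 6 with the transcript length trend removed (13.2%) and 7 without DMSO replicate 1 and SFN replicate 2 (23.2%). It was 6 with sample quality weights, where 3874 of the 13378 genes tested were higher, against 1214 with the main edgeR test. When each library was left out it was 2 to 5, the highest without DMSO replicate 1 (22.5%). The number of lower genes, 14 (background 13.9%), was 10 to 20 over the alternatives. The 20 came with quality weights, where 4041 of the 13378 genes tested were lower, against 1862 with the main edgeR test. The 10 came with quantile normalization (1533 of the 13378 genes tested) and with a replicate block (11.4%). When each library was left out it was 11 to 16, the highest without DMSO replicate 1 (23.5%). The median difference from all genes, -0.27, ran from -0.442 without DMSO replicate 1 to -0.179 without DMSO replicate 5 and was -0.187 with quantile normalization, -0.186 with the length trend removed and -0.422 with quality weights. Why these values moved was not tested.

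Changes of sign concerned members near 0 that did not pass the threshold. With library size only, ZBTB17 had a log2 fold change of -0.0521 and ZBTB1 of -0.0626. With quantile normalization ZBTB40 had 0.0412, ZBTB20 0.1821, ZBTB34 0.0907 and ZBTB1 -0.0386. ZBTB20 had 0.3365 with quality weights, where it passed (adjusted p = 0.0446 by limma), 0.2504 without DMSO replicate 1 and SFN replicate 2, and -0.2868 to 0.417 when each library was left out. With the length trend removed ZBTB40 had 0.1191 and ZBTB34 0.0206. When each library was left out, ZBTB17 ran from -0.0548 to 0.1404, ZBTB40 from -0.2479 to 0.0253, ZBTB34 from -0.2158 to 0.0229 and ZBTB1 from -0.028 to 0.107, or 0.1414 without DMSO replicate 1 and SFN replicate 2 together.

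Whether the replicate numbers pair the samples could not be decided. The correlation of deviations from the group mean between samples with the same number was 0.05, -0.33, -0.08, 0.04 and 0.56 for replicates 1 to 5. SFN replicate 5 was the best match of DMSO replicates 2 to 5 alike, and SFN replicate 2 that of DMSO replicate 1. The deviations also hold the differences in length slope between libraries, so a pairing can be neither shown nor excluded from them. With a replicate block, 2 ZBTB genes were higher (background 6.81%) and 10 lower (background 11.4%). The median difference was then -0.281, and ZBTB20 had a log2 fold change of 0.0615. Depth limited the test for ZBTB8B, ZBTB46 and, among the tested genes, ZBTB3, whose SFN libraries held few counts.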
